A study of Mus musculus with 13 samples.

Results

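The genes described here are 8 long noncoding RNA genes that host small nucleolar RNAs (snoRNAs) in their introns: Gas5, Snhg1, Snhg3, Snhg5, Snhg6, Snhg8, Snhg12 and Snhg15. The list was given by gene name and sets no threshold on a measured value, though it was drawn up with earlier results of these data known. Matched by symbol, all 8 were found among the 55536 genes of the poly(A) RNA-seq files. All 8 also passed the filter on low counts that left 14184 genes for testing. The libraries came from neutrophils freshly isolated from the bone marrow of wild-type mice. They formed a mock group and a group treated with RNase A outside the cells (exRNaseA), with 2 libraries in each. The exRNaseA cells were held with the enzyme in HBSS, a salt buffer, for 10 min at 37 °C, and the labels repeat that enzyme text for the mock libraries, so the groups were taken from the titles. The series calls the libraries biological replicates, but the number, age and strain of the mice are not given in the labels, so the p-values measure the spread between these 4 libraries. The series also holds 9 small RNA libraries, each the only 1 of its group. For the HOXB8 cell line, undifferentiated cells grew with 1 μM estradiol and differentiated cells without it, both with 100 ng/ml of the growth factor SCF. These cells were labelled for 36 h with 100 μM of the azido sugar Ac4ManNAz, beside 10 μM Gal and 100 μM GalNAc. Each of the 2 HOXB8 states gave an input library, a library captured through biotin and streptavidin and a library captured on beads of wheat germ agglutinin (WGA, a lectin). Differentiated cells also gave a biotin library digested with PNGase F, an enzyme that removes N-glycans. Neutrophils gave an input and a WGA library, and their labels repeat the culture and sugar text of the HOXB8 cells, so whether they were labelled is not clear from it.

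A snoRNA host gene makes a spliced transcript whose introns each can carry a snoRNA. After splicing, the intron is opened and trimmed to the mature snoRNA, which joins nucleolar proteins and guides the chemical modification of ribosomal and other RNAs. Box C/D snoRNAs guide ribose methylation and box H/ACA snoRNAs guide pseudouridylation. The spliced exons of these noncoding hosts are exported, carry short reading frames and are degraded by nonsense-mediated decay when ribosomes reach them. Many hosts belong to the TOP class, whose transcripts start with a C and a run of pyrimidines, as do those of ribosomal proteins. Poly(A) selection reads the spliced host transcript and not the mature snoRNA, which has no poly(A) tail.

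The start sites show which of these features the hosts carry in the reference genome, so bases from 40 before to 20 from the annotated start are printed here for the starts that held a pyrimidine run or TATAA in the windows defined next, and for the outer start of Gas5, which held neither. The starts of Snhg1 and Snhg15 also held neither and are not printed. The sequences are from RefSeq (GRCm38.p6) and are written 5′ to 3′ on the strand of the gene. Capitals mark a C followed by at least 4 pyrimidines (C or T), where that C lay within 5 bases of the start, and the letters TATAA where they began 40 to 16 bases before it.
Gas5, outer start: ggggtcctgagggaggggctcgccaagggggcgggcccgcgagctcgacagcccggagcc
Gas5, inner start: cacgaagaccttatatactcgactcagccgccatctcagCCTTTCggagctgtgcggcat
Snhg3: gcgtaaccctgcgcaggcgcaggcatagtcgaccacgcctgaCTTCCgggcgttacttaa
Snhg5: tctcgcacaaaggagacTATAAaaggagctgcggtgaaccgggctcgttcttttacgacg
Snhg8: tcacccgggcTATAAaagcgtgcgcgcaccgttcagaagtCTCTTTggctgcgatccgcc
Snhg12: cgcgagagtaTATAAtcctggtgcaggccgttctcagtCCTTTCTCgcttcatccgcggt
These windows lie at chr1:161034561-161034620 and chr1:161035126-161035185 (forward strand) for Gas5, chr4:132353667-132353726 (reverse) for Snhg3, chr9:88522878-88522937 (reverse) for Snhg5, chr3:123508317-123508376 (reverse) for Snhg8 and chr4:132308638-132308697 (forward) for Snhg12.

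RefSeq gave 8 starts for 7 of the hosts, and Snhg6 was not among them. The pyrimidine run, read on the gene's strand only, was present at 4 of the 8 starts, against 17.1% of all 32851 start windows in the table. It was 8 bases long in Snhg12, 6 bases in Snhg8 and at the inner Gas5 start, and 5 bases in Snhg3. Snhg8 and Snhg12 held both features, Snhg5 only the TATAA of the searched window, and Snhg1 and Snhg15 neither. TATAA in that window stood at 3 of the 8 starts, against 3.52% of all windows. Read on either strand over the whole 300 bases, TATAA was in 6 of the 8 windows (24.9% of all), the E-box CACGTG in 1 (7.15% of all; Snhg15) and the cyclic AMP response element TGACGTCA in 2 (1.79% of all; the inner Gas5 start and Snhg15). The windows searched for the pyrimidine run and for TATAA before the start share no bases, and the 2 palindromes do not overlap each other. A match describes these letters only, and the starts used in neutrophils were not measured.

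Together the 8 hosts supplied between 6072 and 7176 expected counts per library, which was 0.0292% to 0.0313% of the counts. The libraries held between 20661683 and 23722494 expected counts. The 13 neutrophil markers were all expressed and summed to between 265700 and 278900 TPM (a level per transcript length, scaled to the same total in every library), so the labelled cell type was visible in its markers. As list sums, markers of other cells were lower. They reached 4951 to 5184 TPM for 9 erythroid genes and 1864 to 1878 TPM for 9 B cell genes. The sums were 1021 to 1041 TPM for 8 monocyte and macrophage genes and 51.1 to 51.6 TPM for 9 T and NK cell genes. S100a9 and S100a8 made up most of the neutrophil sum, with means of 122900 and 96740 TPM. By gene the lists overlapped: Hbb-bs (mean 1698 TPM) and Ighm (1411 TPM) lay above Ly6g (432 TPM) and Elane (114 TPM). In a bulk sample, fewer cells of a type and less RNA per cell cannot be told apart, and which cells of the preparation made the host transcripts was not tested. The edgeR quasi-likelihood test with Benjamini-Hochberg adjustment over all genes called 13 of the 14184 tested genes between the groups (0.0917%) at an adjusted p under 0.05.

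Gas5 was by far the most abundant host. Gas5 (growth arrest specific 5, named for its build-up in cells that stop growing) stood at 412 and 391 TPM in the mock libraries and at 425 and 444 TPM in the exRNaseA libraries. It made up 53.9% to 56.4% of the summed TPM of the 8 hosts in each library. In mean TPM over the 4 libraries it ranked 297 among all tested genes. It ranked 4 among the 589 tested genes that RefSeq, matched by symbol, classes as lncRNA, whose median was 1.92 TPM. Tested genes whose symbol found no RefSeq class are left out of these lncRNA ranks and this median. The lowest host, Snhg15, ranked 67 among those lncRNAs, so every host lay well above the lncRNA median.

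**Figure D1:**
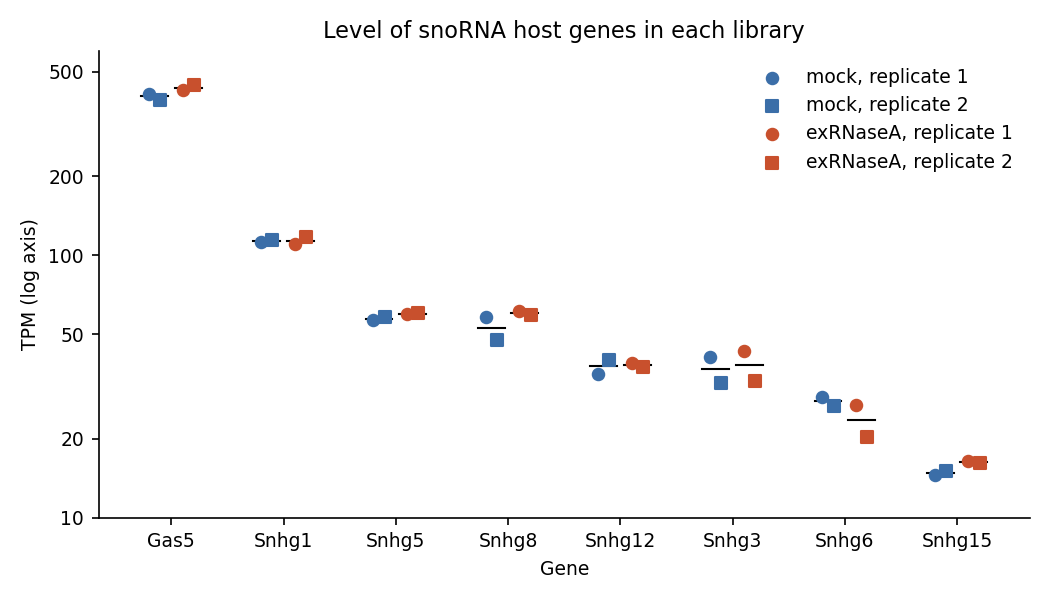
TPM of each snoRNA host gene (log axis) in the 2 mock (blue) and 2 exRNaseA (red) libraries, with circles for replicate 1, squares for replicate 2 and a black bar at each group's mean. Gas5 sits between 391 and 444 TPM, above Snhg1 at 110 to 117 TPM, and Snhg15 is lowest at 14.5 to 16.5 TPM.

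The order of the mean levels was Gas5 (418 ± 22.1 TPM, SD, n = 4 libraries), Snhg1 (113 ± 2.89), Snhg5 (58.6 ± 1.64), Snhg8 (56.5 ± 6.2), Snhg12 (37.9 ± 2), Snhg3 (37.6 ± 5.33), Snhg6 (25.6 ± 3.7) and Snhg15 (15.6 ± 0.917). Gas5 was 3.69-fold above Snhg1, and Snhg1 1.93-fold above Snhg5. Of the 7 neighbouring pairs, 5 had ranges that lay apart, while Snhg5 and Snhg8 (ratio 1.04) and Snhg12 and Snhg3 (ratio 1.01) did not differ beyond their spread. Without mock replicate 2, both of these pairs changed places. Without exRNaseA replicate 2, Snhg12 and Snhg3 changed places as well. The order by reads differed, since Snhg12 drew 318 expected counts per library on average and Snhg8 only 268. Snhg3 drew 145 at nearly the same TPM as Snhg12. The average transcript lengths of Snhg12 and Snhg3, weighted by abundance, were 740 and 444 bases.

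The host transcripts did not pass the test of exRNaseA against mock. Of the 8 hosts 0 were called by edgeR, where 0.0917% of all tested genes were, and 0 had an unadjusted p under 0.05, where 6.35% of all tested genes did. DESeq2, which called 0.0564% of all genes, also called 0 hosts, with 0 at an unadjusted p under 0.05 (150 genes over all). limma on log2(TPM + 1), which called 0.0547% of all genes, called 0 hosts, with 1 host (Gas5) at an unadjusted p under 0.05 (753 of all 12803 genes in that fit). The log2 change was above 0 for 6 hosts and below 0 for Snhg6 and Snhg12, with a median of 0.03, beside -0.00 over all tested genes. The direction of Snhg1, Snhg3, Snhg12 and Snhg15 turned under at least 1 alternative fit. The 95% intervals lay inside ±0.5 for 7 of the 8 hosts (67.1% of all tested genes) and inside ±1 for all 8, so a 2-fold difference lay outside each host's interval.

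**Figure D2:**
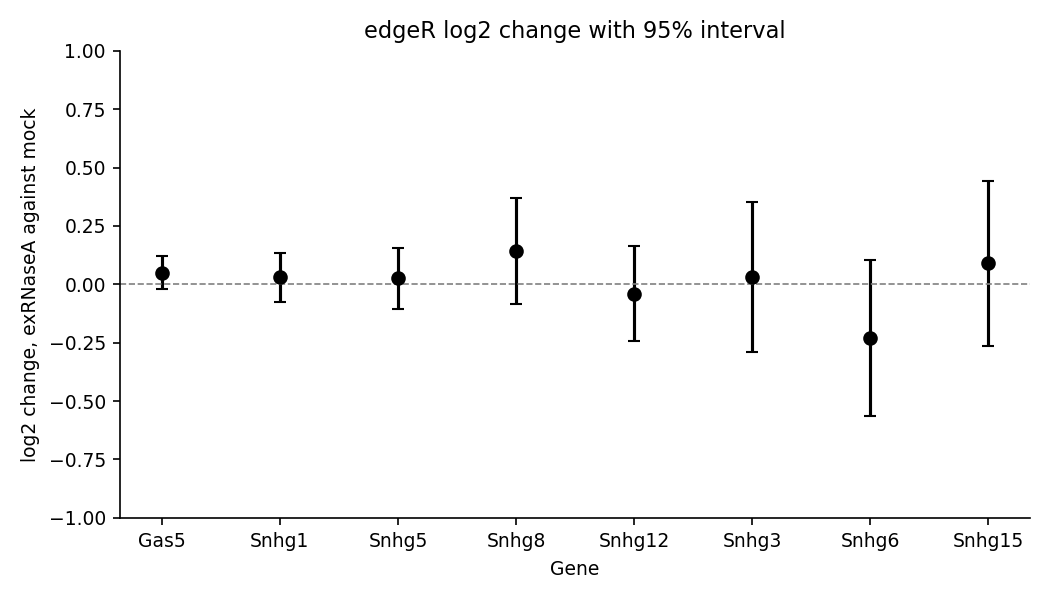
edgeR log2 change of each host, exRNaseA against mock, with its 95% interval (bars) and hosts in order of TPM. Every interval crosses 0, the interval of Gas5 (-0.02 to 0.12) is the narrowest and that of Snhg15 (-0.26 to 0.44) the widest of the 8.

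Among the hosts of box C/D snoRNAs, Gas5 and Snhg1 were the most precisely measured. Gas5 (ENSMUSG00000053332.13, chromosome 1, 161034601 to 161038539, GRCm38.p6) holds 8 annotated snoRNA genes and had 4115 and 3444 expected counts in mock and 3611 and 4137 in exRNaseA libraries. Its log2 change was 0.05 (SE 0.03, adjusted p = 0.871, edgeR), with an interval from -1.35% to 8.69%. It was 0.09 without mock replicate 1, 0.02 without mock replicate 2, 0.07 without exRNaseA replicate 1, 0.03 without exRNaseA replicate 2 and 0.11 with limma on log2(TPM + 1), so its size depended on the libraries and the scale while its direction did not in these fits. The overlap depended on the scale. In TPM both exRNaseA libraries lay above both mock libraries, while in CPM (counts scaled to the library size after TMM, not per length) the groups overlapped, at 175 and 167 against 174 and 180 CPM.

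Snhg1 (ENSMUSG00000108414.1, chromosome 19, 8723487 to 8726326), the U22 host gene, also holds 8 annotated snoRNA genes. It stood at 112 and 114 TPM in mock and 110 and 117 TPM in exRNaseA libraries, so the groups overlapped. Its log2 change was 0.03 (SE 0.05, adjusted p = 0.957, edgeR).

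Snhg5 (ENSMUSG00000097195.9, chromosome 9, 88521052 to 88522897), host of the U50 snoRNAs, differed least between replicates in the exRNaseA group, by 1.01-fold. It stood at 56.5 and 58.1 TPM in mock and 59.6 and 60.1 TPM in exRNaseA libraries. The groups did not overlap, by a margin small against the SE: the log2 change was 0.03 (SE 0.06, adjusted p = 0.967, edgeR).

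Snhg6 (ENSMUSG00000098234.7, chromosome 1, 9942025 to 9944118), host of Snord87, had the log2 change farthest from 0. It stood at 28.8 and 26.7 TPM in mock and 26.8 and 20.3 TPM in exRNaseA libraries. Only exRNaseA replicate 2, with 105 expected counts, was low, and the other exRNaseA library lay between the mock libraries. The log2 change was -0.23 (SE 0.16, interval -0.56 to 0.10, adjusted p = 0.878, edgeR). It was -0.02 without exRNaseA replicate 2 and -0.46 without exRNaseA replicate 1, where edgeR gave an adjusted p = 0.462.

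Among the hosts of box H/ACA snoRNAs, Snhg3 and Snhg8 varied more between replicates in mock than Snhg15 did. Snhg3 (ENSMUSG00000085241.7, chromosome 4, 132351933 to 132353686) hosts the U17 snoRNAs Snora73a and Snora73b, which take part in cutting the ribosomal RNA precursor. It stood at 41.1 and 32.7 TPM in mock and 43.2 and 33.3 TPM in exRNaseA libraries. In both groups replicate 1 was the higher, by 1.26-fold in mock and 1.3-fold in exRNaseA, and the groups overlapped almost fully. The log2 change was 0.03 (SE 0.15, adjusted p = 0.987, edgeR). Counting error alone at its mean of 145 counts is 8.32% of the level.

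Snhg8 (ENSMUSG00000104960.1, chromosome 3, 123507552 to 123508336), host of Snora24, stood at 58.4 and 47.4 TPM in mock and 61.2 and 59.1 TPM in exRNaseA libraries. Mock replicate 2 was low, with the other 3 libraries close together. The groups did not overlap, with a log2 change of 0.14 (SE 0.11, adjusted p = 0.897, edgeR), which was 0.03 without mock replicate 2 and 0.27 without mock replicate 1.

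Snhg15 (ENSMUSG00000085156.7, chromosome 11, 6525591 to 6528760), which holds 1 annotated snoRNA gene, had the fewest counts, 85 to 106 per library. It stood at 14.5 and 15.1 TPM in mock and 16.5 and 16.2 TPM in exRNaseA libraries. The TPM of the groups did not overlap, but their CPM did, at 4.04 and 4.16 against 4.09 and 4.61. Its interval was the widest, at -0.26 to 0.44 around a log2 change of 0.09 (adjusted p = 0.959, edgeR).

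Snhg12 (ENSMUSG00000086290.9, chromosome 4, 132308678 to 132311024) carries both kinds, with 3 H/ACA snoRNA genes (Snora16a, Snora44 and Snora61) and the C/D snoRNA gene Snord99. It stood at 35.4 and 40.1 TPM in mock and 38.8 and 37.4 TPM in exRNaseA libraries, and the exRNaseA values lay between the mock values. The log2 change was -0.04 (SE 0.10, adjusted p = 0.967, edgeR).

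Counted by overlap, 4 hosts had TPM values higher in both exRNaseA libraries than in both mock libraries (Gas5, Snhg5, Snhg8 and Snhg15) and 0 had lower ones. Over all tested genes 24.8% were higher and 11.3% lower in this sense. In TMM-scaled CPM the groups lay apart in 2 hosts (Snhg5 and Snhg8, both higher), a share below the 35.7% of all tested genes whose groups lay apart in either direction. On the TPM scale the median difference of all tested genes was 0.03 on the log2(TPM + 1) scale, against -0.00 for the edgeR log2 change.

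**Figure D3:**
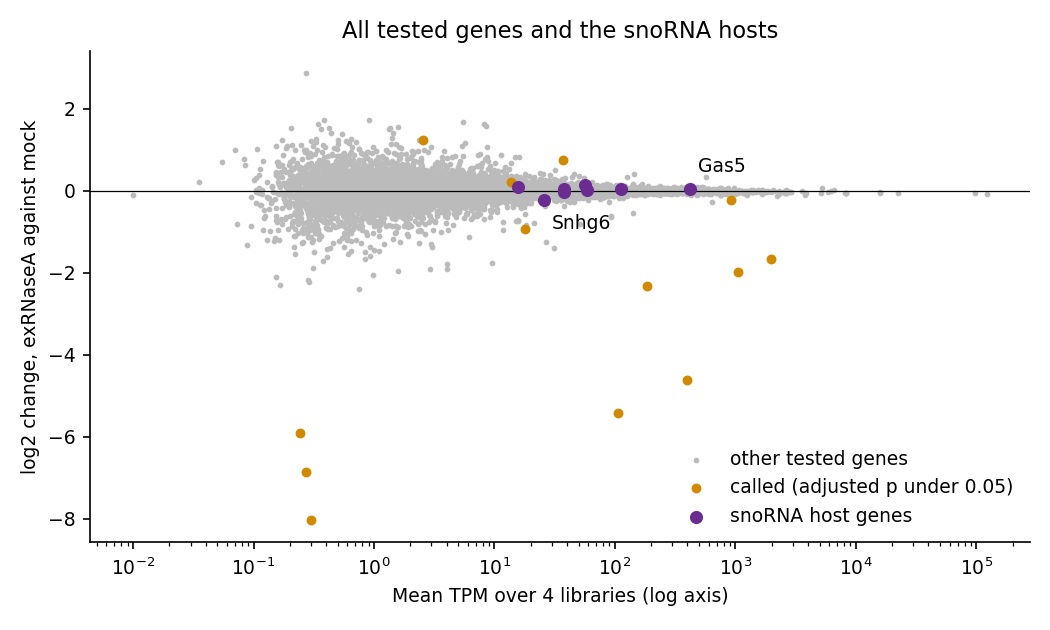
edgeR log2 change against mean TPM over 4 libraries (log axis) for the 14184 tested genes (grey), the 13 called genes (orange) and the 8 hosts (purple). The hosts lie within the band of the uncalled genes, between -0.23 (Snhg6) and 0.14 (Snhg8).

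The deposited transcript length is an average over a gene's annotated transcripts weighted by their estimated abundance. Different mixes of transcripts can give the same average, so it does not show which spliced form of a host was present. Gas5 has 25 annotated transcripts in the files, Snhg1 18, Snhg12 10, Snhg5 6, Snhg3 and Snhg6 5 each, Snhg15 4 and Snhg8 3. The average transcript of Gas5 was 790 and 796 bases in mock and 782 and 782 bases in exRNaseA libraries, so both exRNaseA values lay below the mock values. For Snhg1 it was 887 and 860 bases in mock and 895 and 909 bases in exRNaseA libraries, and for Snhg6 508 and 517 against 525 and 520 bases, both higher without overlap. The other 5 hosts overlapped, and Snhg15 differed most between replicates, at 551 and 608 bases in the exRNaseA libraries. Non-overlapping lengths were common in the tested genes whose length varied: 15.9% were higher and 16.5% lower, so 2 higher and 1 lower of 8 stood close to the background. No test was run on the lengths.

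**Figure D4:**
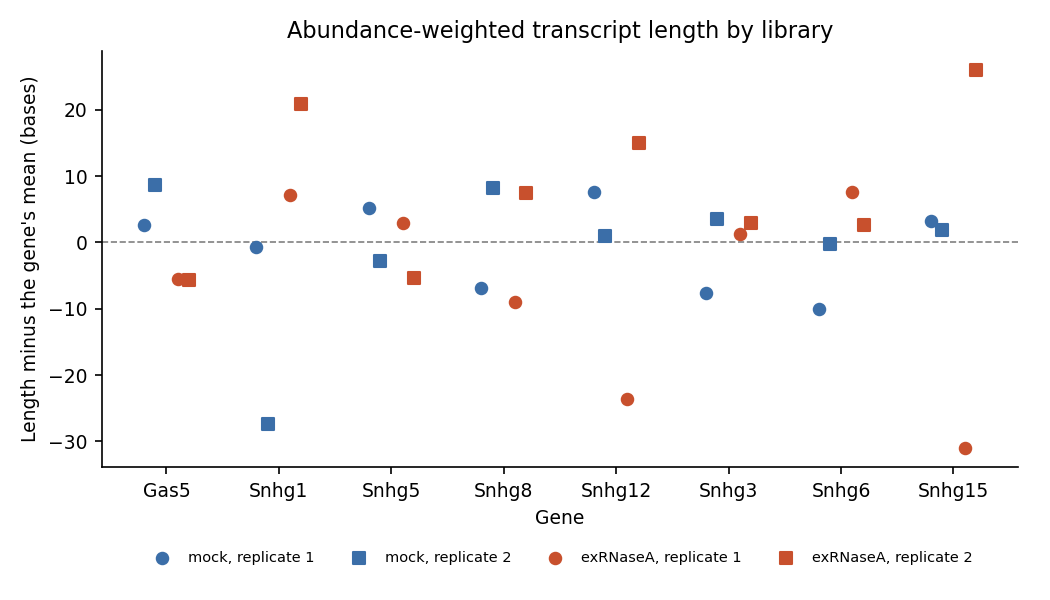
Abundance-weighted transcript length of each host in each library, as bases above or below the gene's mean over the 4 libraries. In Gas5 both exRNaseA libraries (red) lie below both mock libraries (blue), a mean difference of -11.3 bases, and in Snhg1 they lie above by 28.1 bases.

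The few snoRNA genes inside the hosts that could be counted had few poly(A) reads or none. RefSeq places 27 snoRNA genes within the spans of the 8 hosts, of which 10 had a row under the same symbol in the count files and 5 were above 0 in any library. Snora73b, inside Snhg3, had 12.9 and 3.47 expected counts in mock and 2.68 and 0 in exRNaseA libraries, and it was too low to be tested. Snord22, inside Snhg1, had 1.90 and 1.49 expected counts in mock and 0.01 and 0.12 in exRNaseA libraries. Because its effective length was under 3 bases (2.63 to 2.68), these fractions of reads were listed as 42.8, 38.8, 0.23 and 2.73 TPM, so the TPM of such short genes says little about their level. Snora44 in mock replicate 1 (0.97 counts, 17.6 TPM) and Snora61 in exRNaseA replicate 2 (0.94 counts, 16.6 TPM), both inside Snhg12, show the same. For 3 of the 10 genes the effective length was 0 in every library, which leaves no level to read. With these left out, no nested snoRNA could be read for Gas5, Snhg5, Snhg6 and Snhg15. The host counts of Snhg1, Snhg3, Snhg5 and Snhg12 were not within 0.005 of a whole number in some library, so RSEM had split part of their reads between genes and their values are uncertain to that extent, while those of Gas5, Snhg6, Snhg8 and Snhg15 were whole by this tolerance in all 4. With the nested counts added to each host, a setting chosen after seeing the data, the log2 change of Snhg3 was -0.04.

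In the small RNA table, 1 of the 3226 sequences placed on the genome lay inside a host. It is printed because it is the only small RNA sequence here that could be tied to a host by position. The 38 bases come from the deposited table and have no part in capitals.
Snhg8 fragment: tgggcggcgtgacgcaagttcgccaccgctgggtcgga
It lies at chr3:123508114-123508151 (mm10, reverse strand, the strand of Snhg8), begins 186 bases from the annotated start of Snhg8 and ends 47 bases before Snora24. It stood at 19.95 RPM (reads scaled to the library total) in the neutrophil library captured on WGA beads and at 0 RPM in the other 8 libraries, the neutrophil input among them. Among the 793 genome-placed sequences above 0 in the neutrophil WGA library it ranked 126, where the median was 9.98 RPM. Being above 0 in that library only, the sequence was listed through it, so its difference from the input is no test of capture. With 1 library per group this difference has no replicate check, the labels give the size limit of under 300 bases for the inputs only, and whether it lies in an exon of Snhg8 was not analysed here. The 551 snoRNA sequences of the table are named by 198 record numbers that were not paired with snoRNA names here, so the snoRNAs of each host were not analysed in these libraries.

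Genes around the host pathway were described from lists of related genes, and 0 of their members were called by edgeR, with a lowest adjusted p = 0.288. Over all tested genes 0.0917% were called, so a count of 0 in lists of this size is close to the background. Of 14 other noncoding snoRNA hosts 11 were in the files and 6 were tested, with 5 above 0, 1 below and a median log2 change of 0.11. Zfas1, the host of Snord12 family genes, was the highest of them at 52.1 and 53.1 TPM in mock and 57.8 and 52.3 TPM in exRNaseA libraries. Epb41l4aos ranged from 9.56 to 21.4 TPM, and the groups overlapped. Snhg17 had the smallest p of the list, with a log2 change of 0.13 (adjusted p = 0.906, edgeR). The median level of these 6 genes was 6.14 TPM, against 47.2 TPM for the 8 hosts described above.

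The 39 protein-coding snoRNA hosts, mostly ribosomal protein and translation factor genes, had a median level of 439 TPM and a median log2 change of 0.00, with 20 above 0, 18 below and 3 of 39 at an unadjusted p under 0.05 (6.35% of all tested genes). Tpt1 (2283 and 2298 TPM in mock, 2297 and 2290 in exRNaseA), Rpl23a and Rpl13a were the most abundant, with log2 changes of -0.02, -0.01 and -0.00. Prrc2a had the smallest p, with a log2 change of 0.12 (adjusted p = 0.288, edgeR). Gas5, at 418 TPM, stood close to the median of these coding hosts.

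The proteins that bind and assemble snoRNAs (20 tested) had a median log2 change of 0.01, with 11 genes above 0 and 9 below. Nop58 and Nop56, core proteins of box C/D particles, stood at 112 and 111 TPM on average, and Snu13, which binds the same particles, at 62.6 TPM, with log2 changes of -0.01, 0.05 and -0.02. Dkc1, the pseudouridine synthase of H/ACA particles, had the smallest p (log2 change 0.11, adjusted p = 0.780, edgeR).

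The 20 nonsense-mediated decay genes had a median log2 change of 0.02, with 12 above 0, 8 below and 2 of 20 at an unadjusted p under 0.05 (6.35% of all tested genes). Magoh and Eif4a3, proteins of the exon junction complex, and Etf1, a translation release factor, were the most abundant (144, 83.1 and 131 TPM, with log2 changes of -0.05, 0.04 and 0.02), and Smg9 had the smallest p (0.17, adjusted p = 0.628, edgeR). The 16 genes that open introns and trim RNA ends had a median of -0.05, with 5 above 0 and 11 below, led by Pabpn1, Xrn2 and Mtrex in level (log2 changes 0.08, -0.06 and -0.02), with the smallest p for the exosome subunit gene Exosc9 (-0.19, adjusted p = 0.780, edgeR). The 12 regulators of TOP messages had a median of 0.00, with 8 above 0 and 4 below. Pabpc1, which binds poly(A) tails, stood at 749 and 725 TPM in mock and 744 and 850 in exRNaseA libraries (0.05, adjusted p = 0.795, edgeR), with Cnbp (-0.05) and Tial1 (0.04) next in level.

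**Figure D5:**
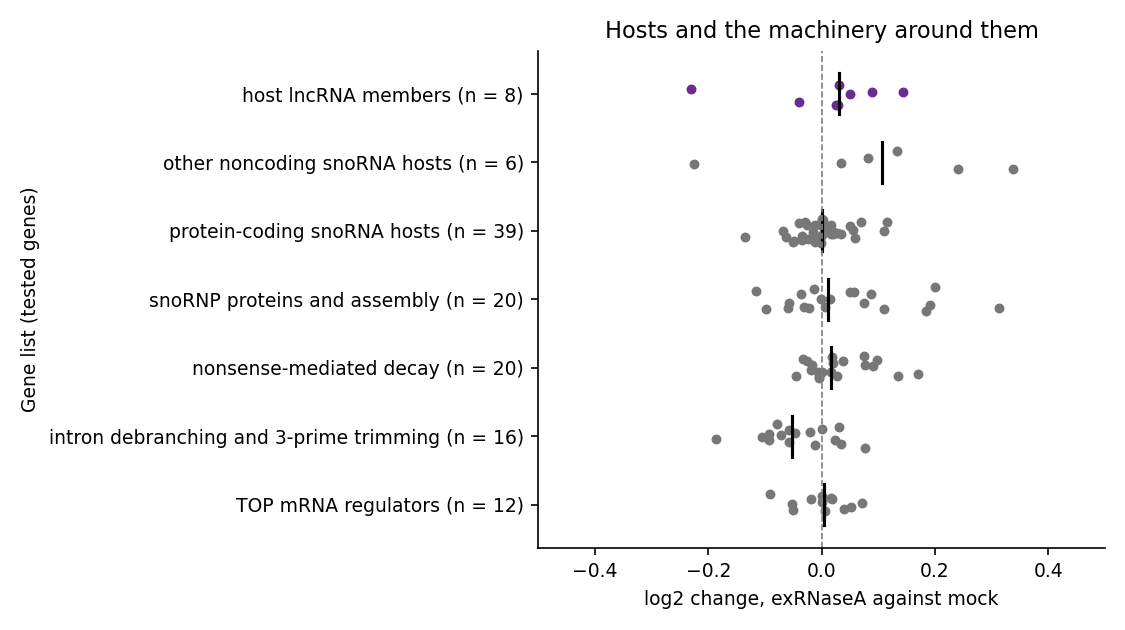
edgeR log2 change of each tested gene (points) in 7 gene lists around the snoRNA hosts, with the list's median as a black line and the 8 hosts in purple. The medians lie between -0.05 (intron debranching and trimming) and 0.11 (other noncoding hosts).

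The marker lists were read in the same way. The 13 neutrophil genes had a median log2 change of -0.05, with 3 above 0 and 10 below. Of them 10 had an unadjusted p under 0.05, against 6.35% of all tested genes, and 0 were called by edgeR, against 0.0917%. They summed to 277700 and 278500 TPM in mock and 278900 and 265700 TPM in exRNaseA libraries. In this sum only exRNaseA replicate 2 was lower than the others, and S100a9 and S100a8 made up most of it. By gene, both exRNaseA libraries lay below both mock libraries in TPM for S100a9, Ly6g, Camp, Cxcr2 and Itgam. Both lay above for Mpo and Elane, and the groups of the other neutrophil genes overlapped. Over all tested genes 11.3% were lower and 24.8% higher in this sense. The median was -0.01 for 9 B cell genes (4 above 0, 5 below), -0.08 for 9 T and NK cell genes (2 above, 7 below), 0.04 for 9 erythroid genes (6 above, 3 below), 0.03 for 7 tested monocyte and macrophage genes (4 above, 3 below) and 0.02 for 9 cell cycle genes (8 above, 1 below). The cell cycle genes summed to 1046 and 1049 TPM in mock and 1102 and 1095 TPM in exRNaseA libraries, with 1 of 9 at an unadjusted p under 0.05 (6.35% of all tested genes). The part of these cells in the host levels was not tested.

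The genes closest to Gas5 in level and profile over the 4 libraries were Hsp90aa1, Rpl28 and Junb, with root mean square differences of 0.05 on the log2(TPM + 1) scale for each. Hsp90aa1 stood at 397 and 405 TPM in mock and 428 and 427 TPM in exRNaseA libraries. Rpl28 stood at 426, 379, 423 and 422 TPM and Junb at 401, 405, 412 and 426 TPM, in the same order of libraries. This likeness is mostly one of level, since the spread over the 4 libraries is small.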

How the data were processed

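The submitters' processing notes name STAR 2.4.2a, RSEM 1.3.3 and the mm10 build. The files the authors deposited give expected counts, TPM and FPKM for each gene, per the file headers. Neither the annotation release nor the use of strand in counting is given in the sources used here. For small RNA the authors deposited RPM of each unique sequence, per the file headers, and no read numbers were used. RSEM splits reads that match several genes, which bears on hosts with nested snoRNA genes.

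Of 55536 genes 55450 had a symbol. Expected counts were rounded, filtered with filterByExpr, scaled by TMM (factors 0.993 to 1.01) and tested with edgeR 4.0.16 in R 4.3.3 (quasi-likelihood test, Benjamini-Hochberg adjustment over 14184 genes). Standard errors and 95% intervals came from the F value. For genes whose F value was near 0 or not finite, they came from limma-voom instead. Alternatives used limma 3.58.1, DESeq2 1.42.0 and other filters, scalings and libraries. The fits were tested on simulated data. Positions are RefSeq's, on GRCm38.p6, which is mm10.

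The members and all gene lists were chosen with earlier results of these data known. All 8 hosts are named, and of each pathway list the 3 genes with the highest TPM and that with the smallest p. Marker lists are given by summed and median values, with single genes named only where a sum hides them. The 3 genes most like Gas5 were named by distance. The p-values measure only the spread between libraries.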

Additional observations from a re-analysis of the deposited data

Results flagged for a closer look

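The Snhg8 fragment comes from data outside the main comparison. It stood at 19.95 RPM in the neutrophil WGA library and at 0 RPM in the neutrophil input. Each of these groups is 1 library. The fragment was above 0 in that WGA library only and so was listed through it. Its contrast with the input therefore tests nothing about capture.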

How the results depend on the processing

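In 15 alternative fits 0 hosts were called, and 108 of 117 host values kept their direction. Gas5 had an unadjusted p of 0.0417 with limma on log2(TPM + 1) and 0.0404 with limma on log2(TPM + 0.1). In these 2 fits 753 and 767 of all genes were under 0.05. Without a filter limma gave Gas5 an unadjusted p of 0.0578. Snhg3, Snhg6 and Snhg15 were not tested at 10 CPM or more in 2 libraries. In the 3 limma fits on TPM Snhg12 was at 0.0155, 0.0159 (log2(TPM + 0.1)) and 0.0155 (no filter), and with nested snoRNA counts added Snhg3 was at -0.036. Leaving out each library in turn gave -0.0216 to 0.0766 for Snhg1, -0.16 to 0.21 for Snhg3, -0.12 to 0.035 for Snhg12 and -0.0012 to 0.17 for Snhg15; with 1 library left in a group, it is assumed to vary like the other group. The host median stayed between 0.01 and 0.06.

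Genes called in all were 13, against 8 with DESeq2, 149 with no filter, 7 at 10 CPM or more, 7 and 8 with limma on log2(TPM + 1) and log2(TPM + 0.1), 0 with limma without a filter (1339 at an unadjusted p under 0.05) and 3 without 5 genes that carry ribosomal RNA sequence. They were 9 to 74 with a library left out: 74 without mock replicate 1, 9 without mock replicate 2, 59 without exRNaseA replicate 1 and 29 without exRNaseA replicate 2. With the replicate number as a block 55 were called. Replicate differences of the groups correlated at 0.01 over tested genes and at 0.042 over the 7828 genes averaging at least 10 CPM. A low correlation cannot decide whether libraries with the same replicate number share mice or a preparation. The labels do not give this, and it was not tested. The block changed no call of a host. Members at their place in the level order numbered 4 to 8 of 8 with a library left out. The causes were not tested. The comparison of host snoRNA reads between captures and inputs, with its 3 alternatives, was not run, since the records carry no names.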
